A study of Mus musculus with 9 samples.

Results

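The Bcl2 family of cell death regulators was followed in the colon epithelium of mice fed dietary heme. The family members were 10 genes chosen by name, and 9 of them had a probeset that the platform annotation names, out of 19938 genes named in the series. No probeset was named Bax here, so Bax has no value below. Each of the 9 genes had 1 probeset, and all 9 lay above the filter on low values, among 14953 genes tested. The measured members were the antiapoptotic genes Bcl2, Bcl2l1 (Bcl-xL) and Mcl1, the effector Bak1, and the BH3-only genes Bad, Bid, Bbc3 (Puma), Pmaip1 (Noxa) and Bcl2l11 (Bim).

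There were 4 heme pools, of days 2, 4, 7 and 14, from male C57BL/6J mice of 9 to 11 weeks that ate a diet with 40% of its energy from fat and 0.2 µmol heme per g. The 5 control pools, of days 0, 2, 4, 7 and 14, came from mice of the same strain, sex and age that ate the same fat-rich diet without heme. All mice had eaten the control diet for a run-in of 1 week, and day 0 is its end. Each pool joined the RNA of 4 mice, or of 3 in the control pool of day 2, taken from epithelium scraped off the opened and washed colon, and was hybridised to 1 Affymetrix array. Per its title, the series asked which responses to heme in the colon are immediate and which are delayed. No diet and day has a second pool, so the spread in every test is that between pools of different days and not between mice.

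Proteins of the Bcl2 family decide whether the outer membrane of the mitochondrion stays closed. Bak1 and Bax form the pores that let cytochrome c out and start the caspases, the antiapoptotic proteins hold them in check, and the BH3-only proteins carry death signals by binding either side. In the gut, epithelial cells are shed and replaced continually, and Bcl2 family proteins are known to set how readily crypt cells die after damage. Much of their control acts on the protein, which an array of RNA does not measure.

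Values are log2 expression per probeset, on which a difference of 1 is a doubling. A gene was called in a comparison at a limma p under 0.05 after Benjamini-Hochberg adjustment across every gene tested. Levels of different probesets are not compared, because each probe has its own brightness.

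The promoters of the 3 members that were lower in the heme pool of day 14, described below, are printed to show the DNA around their starts. They run from 250 bases before to 50 bases after an annotated start of the gene, from RefSeq on GRCm38.p6. They lie at chr1:106714241-106714540 on the minus strand (Bcl2), chr2:128125788-128126087 on the plus strand (Bcl2l11, the first of 2 windows) and chr6:120916775-120917074 on the minus strand (Bid). On the minus strand Bid as a whole begins at chr6:120917062, so most of its window lies inside the gene. Capitals mark the GC box, GGGCGG on either strand, and the forkhead motif GTAAACA on either strand.
Bcl2: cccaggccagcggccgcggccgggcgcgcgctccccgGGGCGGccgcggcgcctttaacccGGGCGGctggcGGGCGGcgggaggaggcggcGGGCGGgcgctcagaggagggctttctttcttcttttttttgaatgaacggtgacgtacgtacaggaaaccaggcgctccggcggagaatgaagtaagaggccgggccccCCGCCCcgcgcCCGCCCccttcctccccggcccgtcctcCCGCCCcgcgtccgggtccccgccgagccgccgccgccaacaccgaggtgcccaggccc
Bcl2l11: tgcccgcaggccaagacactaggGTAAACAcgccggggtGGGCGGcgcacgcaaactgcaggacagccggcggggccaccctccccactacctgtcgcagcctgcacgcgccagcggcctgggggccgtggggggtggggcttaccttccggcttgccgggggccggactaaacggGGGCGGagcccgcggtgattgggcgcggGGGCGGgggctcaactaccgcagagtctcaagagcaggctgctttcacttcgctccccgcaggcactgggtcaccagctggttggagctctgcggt
Bid: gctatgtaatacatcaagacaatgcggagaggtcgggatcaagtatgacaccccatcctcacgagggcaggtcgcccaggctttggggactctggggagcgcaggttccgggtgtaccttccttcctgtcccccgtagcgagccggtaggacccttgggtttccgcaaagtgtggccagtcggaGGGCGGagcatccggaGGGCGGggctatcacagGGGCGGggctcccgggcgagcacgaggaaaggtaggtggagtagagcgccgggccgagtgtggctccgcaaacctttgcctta
The Bcl2 window held 7 GC boxes and no forkhead motif. The Bcl2l11 window held 3 GC boxes and 1 forkhead motif, and the Bid window 3 GC boxes and no forkhead motif. No marked match overlapped another. Of all 32851 promoter windows of the same length, 35.7% held a GC box and 3.65% the forkhead motif. Of the 15 windows of the 9 genes of the family that the promoter table holds (Bax among them, Pmaip1 not), 10 held a GC box, 2 the forkhead motif and 1 the core of the antioxidant response element, TGACNNNGC on either strand, which 12.4% of all windows held.

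Over all days no member was called between the diets, where 0.669% of the genes tested were called (100 of 14953, by limma), 0.595% higher and 0.0736% lower. Of the 9 members, 6 had a lower mean in the heme pools and 3 a higher one, with log2 differences between -0.18 and 0.12. The members' median difference was -0.08, beside -0.002 over all genes tested. At an unadjusted p under 0.05 there were 3 of the 9, Bcl2, Bak1 and Mcl1, beside 17% of all genes tested. The ranges of heme and control pools overlapped or touched for all 9 members, and 5.6% of all genes tested had ranges that did not overlap.

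**Figure D1:**
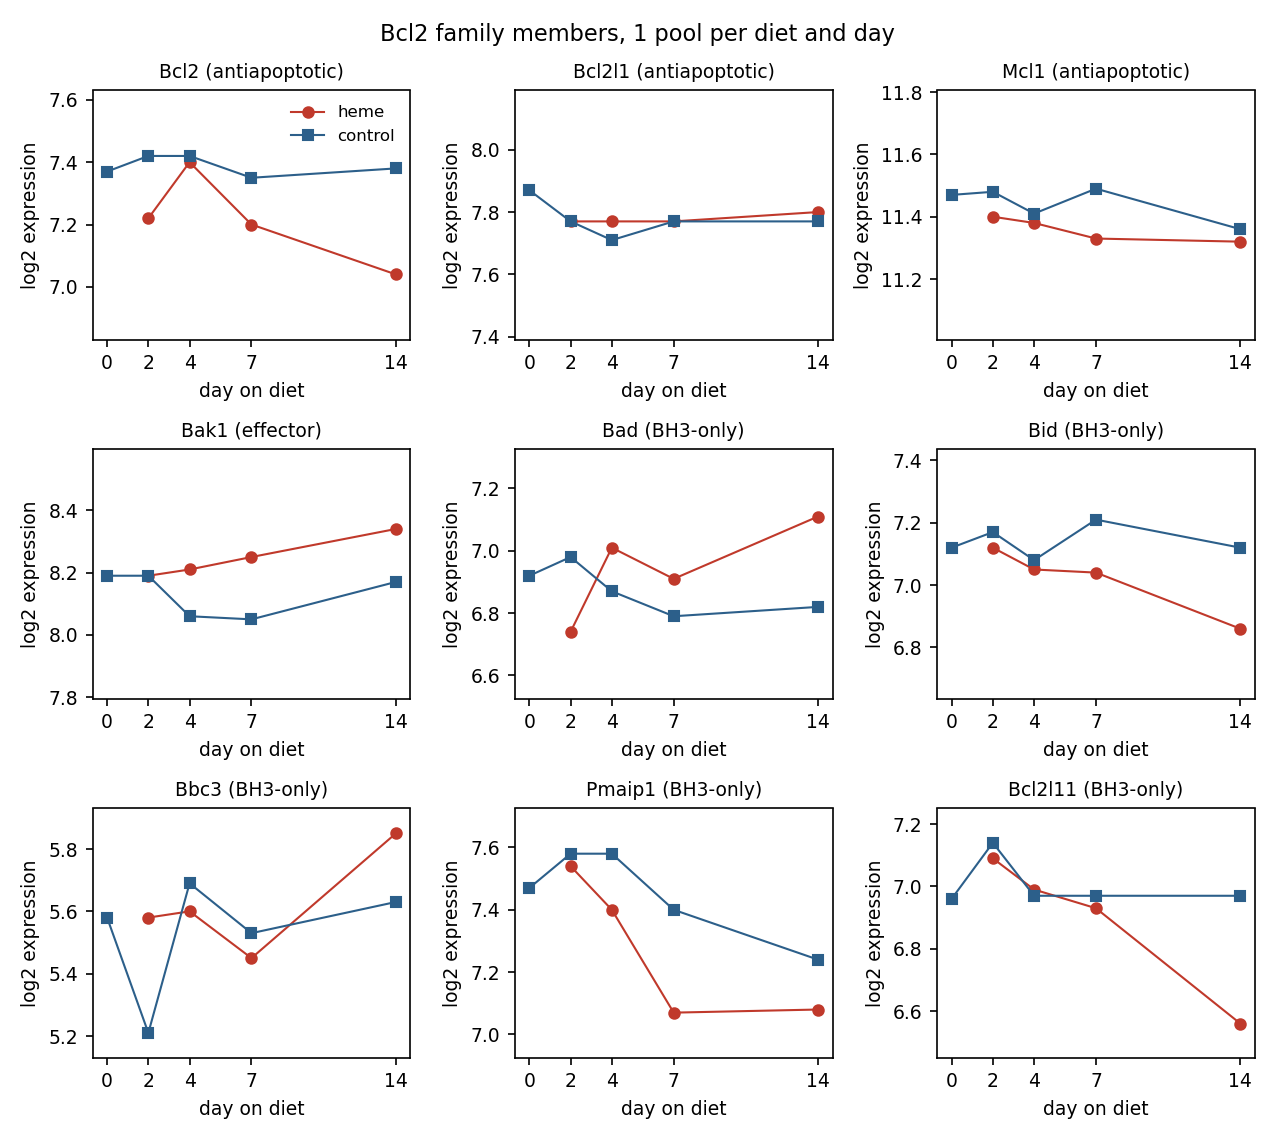
Log2 expression (vertical axis, the same span of 0.8 in every panel) against the day on diet (horizontal axis) for the 9 members. Red circles are heme pools and blue squares control pools, each point is 1 pool, and lines join pools of 1 diet. Bcl2, Bcl2l11 and Bid reached their lowest values, 7.04, 6.56 and 6.86, in the heme pool of day 14.

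Among the antiapoptotic genes, Bcl2 is the founding member of the family. Bcl2 had a log2 expression of 7.22, 7.40, 7.20 and 7.04 in the heme pools of days 2, 4, 7 and 14, against 7.37, 7.42, 7.42, 7.35 and 7.38 in the control pools of days 0, 2, 4, 7 and 14. The control pools lay close together, while 3 of the heme pools were below all of them and that of day 4 was among them. The mean was 7.22 ± 0.15 in the heme pools (SD, n = 4) and 7.39 ± 0.03 in the control pools (SD, n = 5). The log2 difference between the diets was -0.17 (SE 0.06, 95% interval -0.31 to -0.03), with a limma adjusted p of 0.24. An exact two-sided permutation test of the 9 pools, which cannot give less than 0.00794, gave p = 0.0317 for Bcl2, not adjusted for the 9 genes tested this way. Bcl2 was below the control pool of the same day on each of the 4 days, by differences of -0.20, -0.02, -0.16 and -0.34.

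Mcl1 encodes a short-lived antiapoptotic protein. It stood at 11.40, 11.38, 11.33 and 11.32 log2 in the heme pools of days 2, 4, 7 and 14, against 11.47, 11.48, 11.41, 11.49 and 11.36 in the control pools of days 0, 2, 4, 7 and 14. All 4 heme pools were below the control pool of their day, but those of days 2 and 4 lay above the control pool of day 14. The log2 difference between the diets was -0.08 (SE 0.03, limma adjusted p = 0.272, exact permutation p = 0.0556). Bcl2l1, whose long product Bcl-xL guards mitochondria in many epithelia, stood at 7.77, 7.77, 7.77 and 7.80 in the heme pools and at 7.87, 7.77, 7.71, 7.77 and 7.77 in the control pools of the same order of days. Of the 9 pools, 6 held the same value, as the summary of probes by median polish can give, so its spread may be understated. Its difference was -0.002, with a 95% interval of -0.09 to 0.08, and the probeset does not separate the long product from the short, proapoptotic one.

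Bak1, the effector that sits in the outer mitochondrial membrane, was the member whose mean was highest relative to control. It stood at 8.19, 8.21, 8.25 and 8.34 log2 in the heme pools of days 2, 4, 7 and 14, against 8.19, 8.19, 8.06, 8.05 and 8.17 in the control pools of days 0, 2, 4, 7 and 14. The ranges touched, because the heme pool of day 2 held the same value as the control pools of days 0 and 2, and the other 3 heme pools were above all control pools. The log2 difference between the diets was 0.12 (SE 0.05, 95% interval 0.01 to 0.22, limma adjusted p = 0.27, exact permutation p = 0.0476). Within each array the difference of Bak1 minus Bcl2, which centring an array does not change, was 0.96, 0.80, 1.06 and 1.30 in the heme pools of days 2, 4, 7 and 14 and 0.82, 0.77, 0.64, 0.70 and 0.79 in the control pools of days 0, 2, 4, 7 and 14. It was widest in the heme pool of day 14, and only that of heme day 4 lay inside the control range. This pair was chosen after its values were seen, so it was not tested.

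Of the BH3-only genes, Bid links death receptors to mitochondria once caspase 8 has cut its protein. Bid stood at 7.12, 7.05, 7.04 and 6.86 log2 in the heme pools of days 2, 4, 7 and 14, against 7.12, 7.17, 7.08, 7.21 and 7.12 in the control pools of days 0, 2, 4, 7 and 14. Each heme pool was below the control pool of its day, by -0.06, -0.03, -0.18 and -0.26, and those of days 4, 7 and 14 were below all control pools. The log2 difference between the diets was -0.12 (SE 0.06, limma adjusted p = 0.296, exact permutation p = 0.0476). Bcl2l11, which binds all antiapoptotic members, stood at 7.09, 6.99, 6.93 and 6.56 in the heme pools and at 6.96, 7.14, 6.97, 6.97 and 6.97 in the control pools. Its control pools of days 4, 7 and 14 held the same value, so the spread of its control pools may be understated too. The heme pool of day 14 was far below the rest, and without it the difference between the diets was -0.003, against -0.11 with it (limma adjusted p = 0.989 and 0.532). Pmaip1, a p53 target that blocks Mcl1, stood at 7.54, 7.40, 7.07 and 7.08 in the heme pools and at 7.47, 7.58, 7.58, 7.40 and 7.24 in the control pools. It was lower than the control pool of its day on all 4 days, most on day 7 (-0.33), while the control pool of day 14 was also low, and its difference of -0.18 had a limma adjusted p of 0.40.

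Bad is held inactive by survival kinases through phosphorylation. It stood at 6.74, 7.01, 6.91 and 7.11 log2 in the heme pools of days 2, 4, 7 and 14, against 6.92, 6.98, 6.87, 6.79 and 6.82 in the control pools of days 0, 2, 4, 7 and 14. It was below the control pool on day 2 (-0.24) and above it on days 4, 7 and 14 (0.13, 0.12 and 0.28), and the difference over all days was 0.06 (limma adjusted p = 0.661). Bbc3, the p53 target Puma, stood at 5.58, 5.60, 5.45 and 5.85 in the heme pools and at 5.58, 5.21, 5.69, 5.53 and 5.63 in the control pools. It was above the control pool of its day on days 2 and 14 and below it on days 4 and 7, and its difference of 0.10 had a 95% interval of -0.14 to 0.34 (limma adjusted p = 0.644). The control pool of day 2 was the lowest of all for Bbc3.

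**Figure D2:**
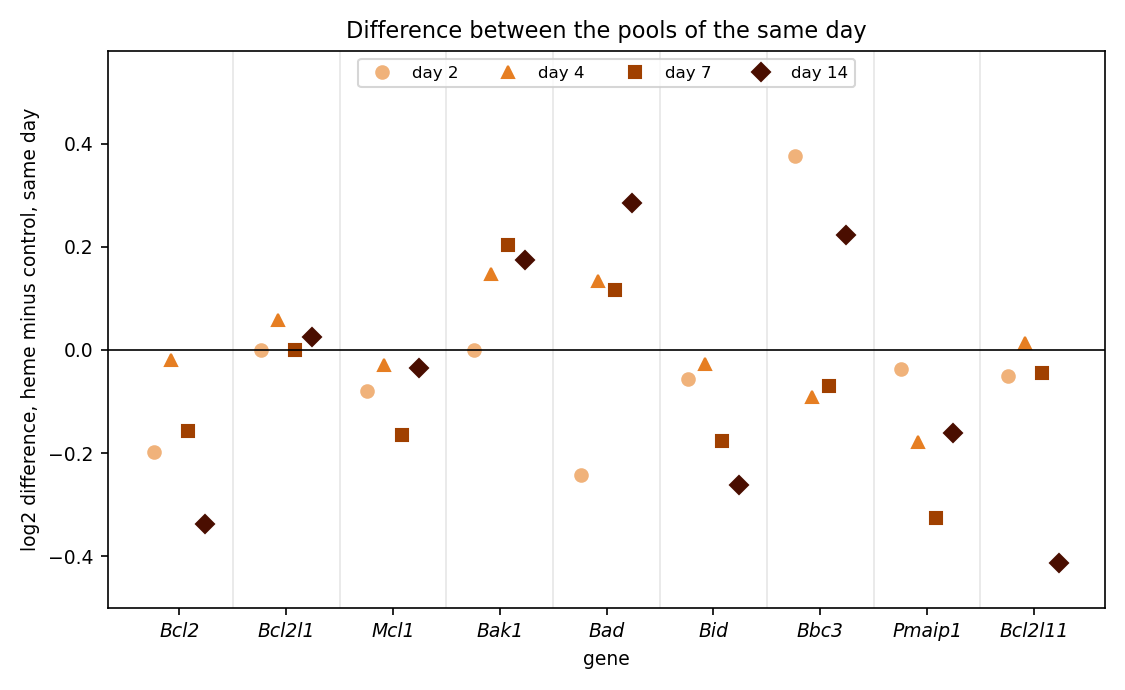
Log2 difference of the heme pool minus the control pool of the same day (vertical axis) for each member (horizontal axis), with 1 point for each of days 2, 4, 7 and 14. Bcl2, Mcl1, Bid and Pmaip1 lay below 0 on all 4 days, and the widest difference was that of Bcl2l11 on day 14, at -0.41.

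Each heme pool was then set against the 5 control pools, which these comparisons share. In the comparisons of single days, fell and rose mean lower and higher than the control pools, not a change over time. In the pools of days 2 and 4 no member was called by limma, and of all genes tested 0% were called on either day by limma, with 9.26% (1385 genes) on day 2 and 7.03% (1051 genes) on day 4 at an unadjusted p under 0.05. Members' differences ran from -0.17 to 0.09 on day 2 and from -0.09 to 0.13 on day 4. Bcl2 on day 2, at -0.17, was the only member with an unadjusted p under 0.05 (adjusted p = 0.414). On day 2 Bcl2 and Bad lay below all control pools and no member above them, beside 17.3% and 19.8% of all genes tested. On day 4 Bak1 and Bad lay above all control pools and Bid below them, beside 17.3% and 14.8%. On day 7 again no member was called, where 1.64% of all genes tested were, 0.876% higher and 0.762% lower. Bcl2 was at -0.19 (SE 0.05, adjusted p = 0.114) and Pmaip1 at -0.38 (SE 0.13, adjusted p = 0.216), the only members at an unadjusted p under 0.05, beside 16.8% of all genes tested. In the heme pool of day 7, 5 members lay below all control pools and 1, Bak1, above them. Of all genes tested, 25.2% were below and 17.9% above all control pools on that day.

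On day 14 Bcl2, Bcl2l11 and Bid fell, 3 of 9 members, where 27.1% of all genes tested were called and 15.8% were lower. Bcl2 was 1.27-fold lower (log2 difference -0.35, SE 0.05, limma adjusted p = 0.00792). Bcl2l11 was 1.36-fold lower (-0.44, SE 0.08, adjusted p = 0.0132), and Bid 1.22-fold lower (-0.28, SE 0.06, adjusted p = 0.0227). Against the control pool of day 14 alone the differences were -0.34, -0.41 and -0.26. Pmaip1 was at -0.37 (adjusted p = 0.0808) and Mcl1 at -0.12 (adjusted p = 0.162), while Bbc3 was at 0.33 (adjusted p = 0.216), Bad at 0.23 (adjusted p = 0.0828), Bak1 at 0.21 (adjusted p = 0.0695) and Bcl2l1 at 0.02 (adjusted p = 0.904). The members called thus held 1 antiapoptotic and 2 proapoptotic genes, and their share was close to that of all genes called in either direction. All 3 were lower, a larger share than that of all genes called lower, and this difference in share was not tested. At an unadjusted p under 0.05 there were 6 of 9 members, beside 40.9% of all genes tested. In this pool 5 members lay below all control pools and 3 above, beside 34.5% and 32.1% of all genes tested.

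The array of the heme pool of day 14 stood apart from the rest. Its median over all probesets was 5.895 log2, against 5.923 to 5.935 in the other heme pools and 5.929 to 5.963 in the control pools. Its upper quartile stood further off, at 7.673, against 7.749 to 7.766 in the other heme pools and 7.745 to 7.794 in the control pools. With the filter at the median of gene means, the median day 14 difference over all genes tested was -0.05, beside -0.001 with the main filter. Of the members, 8 passed that stricter filter. Centring on the median shifts all values of an array alike. This pool is the only heme pool in the comparison, so its own spread was taken from the control pools. With each array centred on its median, 4 members were called on day 14. Bcl2 (-0.30, adjusted p = 0.0133) and Bcl2l11 (-0.39, adjusted p = 0.0176) were lower, Bak1 (0.26, adjusted p = 0.0358) and Bad (0.28, adjusted p = 0.0412) were higher, and Bid (-0.23, adjusted p = 0.0502) was not called. All genes tested then split into 2266 higher and 1681 lower, against 1689 higher and 2362 lower with the values as deposited. Bcl2 and Bcl2l11 stayed called in all 10 alternative fits of day 14, among them those that left out each control pool in turn. Over these fits the difference ran from -0.36 to -0.30 for Bcl2 and from -0.45 to -0.39 for Bcl2l11. All of them used the same heme pool of day 14, so they cannot show how far its array alone sets these values.

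**Figure D3:**
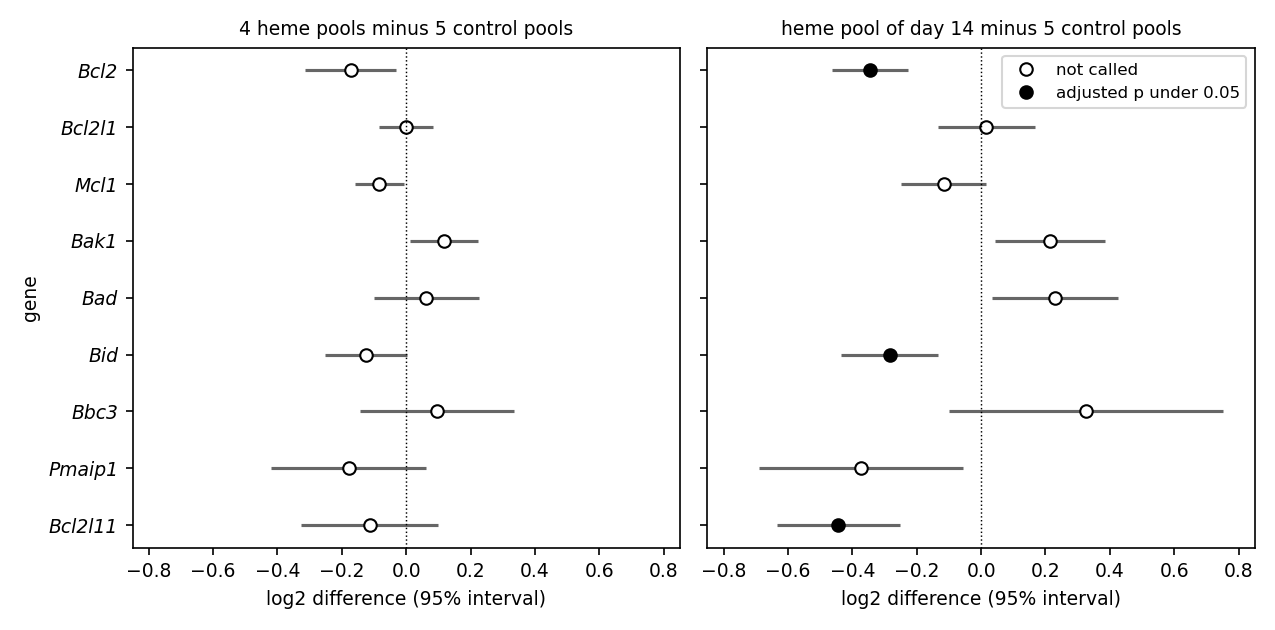
Log2 difference (horizontal axis) with its 95% interval from limma for each member (vertical axis), for the 4 heme pools minus the 5 control pools on the left and for the heme pool of day 14 minus the same control pools on the right. Filled points passed an adjusted p of 0.05: none on the left, and Bcl2, Bid and Bcl2l11 on the right.

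Whether the response was later than early was tested over the 8 pools of days 2 to 14, as the difference between the diets on days 7 and 14 minus that on days 2 and 4. No member was called by limma, nor was any gene (0%, with 990 genes, 6.62%, and no member at an unadjusted p under 0.05). The members' values ran from -0.21 for Bcl2l11 to 0.25 for Bad, with a smallest adjusted p of 0.778. Time on the control diet alone, fitted in the 5 control pools against log2(day + 1), gave members' slopes between -0.06 and 0.03 and likewise no call by limma (0% of all genes, 1073 at an unadjusted p under 0.05, smallest adjusted p of a member 0.766). The day 14 calls are therefore not shown to differ from the early days.

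By the rule of likeness, the genes whose pattern over the 9 pools was most like that of Bcl2 were Cd24a (Pearson r = 0.98), 2410002F23Rik (r = 0.98), Nrip1 (r = 0.97), Zdhhc14 (r = 0.97) and Tmem59 (r = 0.97). Cd24a stood at 10.88 log2 in the heme pool of day 14, with a mean of 11.21 in the heme pools and 11.52 in the control pools. A Pearson r above 0.9 with Bcl2 was reached by 188 of the other genes tested. All points share the 9 arrays and their scaling.

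The other genes of the pathway came from 7 lists. Between the diets no gene of these lists was called over all days, where 0.669% of all genes tested were. The list of other Bcl2 relatives had 10 genes tested of 15, with a median difference of 0.02. With the values as deposited none of this list was called on day 14 either (median 0.05), beside 27.1% of all genes tested. Between the diets its highest values were 0.15 for Bok, a Bax-like protein, and 0.12 for Hrk, a BH3-only gene, and its lowest -0.09 for Bcl2l14 and -0.08 for Bmf, a BH3-only gene (adjusted p between 0.254 and 0.504). Among the mitochondrial proteins, caspases and their substrates, 15 were tested, and over all days Aifm1, the apoptosis-inducing factor, was at 0.14, cytochrome c (Cycs) at 0.12, Diablo, which counters inhibitors of apoptosis, at -0.03 and the apoptosome scaffold Apaf1 at -0.17 (adjusted p between 0.163 and 0.808). On day 14 the list had 1 call among the 15 tested, the executioner caspase Casp6, at 0.14. Of all genes tested, 27.1% were called on that day and 11.3% were called higher. Casp6 was named after its value was seen, as are the others called on day 14 outside the naming rule.

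Of 7 inhibitors of apoptosis proteins tested, 4 were lower and 1 higher on day 14, beside 15.8% lower and 11.3% higher of all genes tested, and the median was -0.29, beside -0.001 for all genes. The lower ones were Birc2 (-0.54, adjusted p = 0.0083) and Birc3 (-0.29, adjusted p = 0.0283), ubiquitin ligases of TNF receptor signalling, and Naip2 (-0.44, adjusted p = 0.00643) and Naip5 (-0.54, adjusted p = 0.0163), sensors of the inflammasome whose near-identical relatives can share probes. The higher one was Birc5 (survivin), a mitotic protein, at 0.89 (adjusted p = 0.0166). Birc2 stood at 7.63, 7.62, 7.57 and 7.17 log2 in the heme pools, against 7.69, 7.81, 7.76, 7.65 and 7.63 in the control pools, so that the day 14 pool alone was far below. Birc5 stood at 6.72, 6.78, 7.31 and 7.34 in the heme pools and at 6.58, 6.47, 6.18, 6.35 and 6.66 in the control pools, above all control pools on every day. Over all days Birc5 had a difference of 0.59, Xiap, the direct inhibitor of caspases, 0.18, Birc2 -0.21 and Naip5 -0.24 (adjusted p between 0.134 and 0.286).

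Of 13 death receptor genes tested, 3 fell and 1 rose on day 14, a share near the 27.1% of all genes called. The death receptor Fas was at 6.72, 6.97, 6.81 and 6.32 log2 in the heme pools and at 7.10, 7.08, 7.00, 7.05 and 7.04 in the control pools, below all of these on each day (day 14 difference -0.74, adjusted p = 0.00251). Tnfsf10, the ligand TRAIL, was at -0.65 on day 14 (adjusted p = 0.0336) and Cflar, which blocks caspase 8, at -0.19 (adjusted p = 0.0282). The kinase of necroptosis Ripk3 rose, with 8.29, 8.29, 8.89 and 9.07 in the heme pools and 8.22, 8.20, 7.94, 8.04 and 8.32 in the control pools (day 14 difference 0.93, adjusted p = 0.00876). The heme pools of days 7 and 14 were above all control pools for Ripk3. Mlkl, which Ripk3 activates, was at 0.30 on day 14 (adjusted p = 0.129). Over all days the differences were 0.49 for Ripk3, 0.14 for Mlkl, -0.35 for Fas and -0.40 for Tnfsf10 (adjusted p between 0.148 and 0.386).

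Of 19 genes of the p53 pathway tested, 5 fell on day 14 and 0 rose (median -0.13), beside 15.8% lower and 11.3% higher of all genes tested. They were Plk2 (-0.52, adjusted p = 0.00763), Mdm4, an inhibitor of p53 (-0.48, adjusted p = 0.0104), Zmat3 (-0.43, adjusted p = 0.00496), Sesn1 (-0.41, adjusted p = 0.0189) and Trp53inp1 (-0.30, adjusted p = 0.0229). Over all days Plk3 was at 0.17, Aen at 0.12, Sesn1 at -0.17 and Plk2 at -0.29 (adjusted p between 0.148 and 0.299). Of 13 factors known to induce BH3-only genes, the forkhead factors Foxo1 (-0.26, adjusted p = 0.0126) and Foxo3 (-0.22, adjusted p = 0.0151) and the kinase Mapk9 (-0.25, adjusted p = 0.0325) fell on day 14, and Trib3 rose (0.39, adjusted p = 0.0458). These 4 calls stand beside 27.1% of all genes called. In this list Trp63 was at 0.16 and Trp73 at 0.15 over all days, and Foxo1 and Ddit3 were at -0.11 each (adjusted p between 0.305 and 0.389). Of 12 genes whose products bind, stabilise or degrade Bcl2 family proteins, 4 fell and 1 rose on day 14, beside 15.8% lower and 11.3% higher of all genes tested. The lower ones were Btrc (-0.29, adjusted p = 0.00913), a ubiquitin ligase subunit, the cochaperone Bag1 (-0.25, adjusted p = 0.0202), Bnip2 (-0.24, adjusted p = 0.0258) and the deubiquitinase Usp9x (-0.13, adjusted p = 0.0456), and the higher one was Tmbim6, Bax inhibitor 1 (0.14, adjusted p = 0.0459). Over all days Bag3 was at 0.09, Tmbim6 at 0.08, and Bag1 and Btrc at -0.13 each (adjusted p between 0.223 and 0.275). With arrays centred on their medians the calls of Cflar, Mapk9, Bnip2 and Usp9x on day 14 were lost (adjusted p of 0.0979, 0.0724, 0.0618 and 0.169), while Hrk (0.32, adjusted p = 0.0316), Casp9 (0.20, adjusted p = 0.028), Vdac1 (0.18, adjusted p = 0.0365) and Tradd (0.30, adjusted p = 0.0321) were then called higher.

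**Figure D4:**
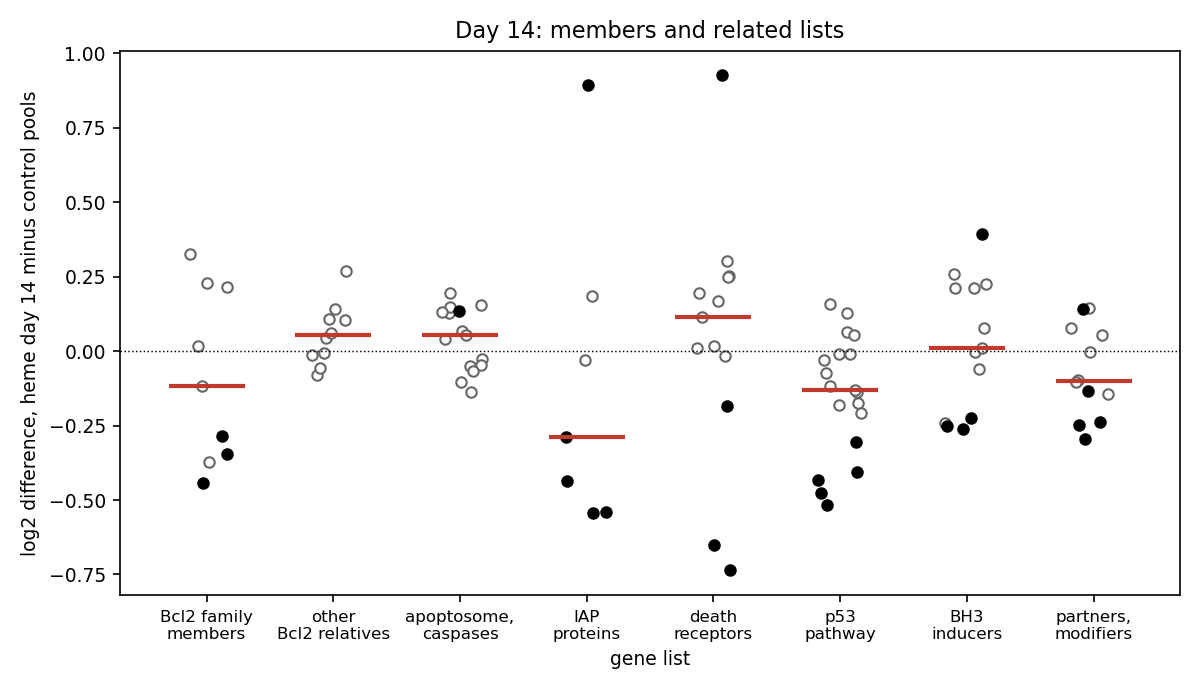
Log2 difference of the heme pool of day 14 minus the 5 control pools (vertical axis) for the tested genes of the family and of 7 related lists (horizontal axis). Each point is 1 gene, filled where its adjusted p was under 0.05, and red bars are list medians, which ran from -0.29 for the inhibitors of apoptosis to 0.11 for the death receptor list.

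The list means of cell type markers differed between the pools of these scrapings. Over all days only the colonocyte list held a gene called between the diets, 1 of 12, beside 0.669% of all genes tested. In bulk RNA, fewer cells of a type and less RNA per cell cannot be told apart. Mitosis genes, 14 with a probeset of 15 listed and all above the filter, had list means of 7.62 to 8.15 log2 in the heme pools and 7.31 to 7.59 in the control pools, with 12 of 14 higher on day 14, beside 11.3% of all genes tested. Crypt stem cell markers, 8 of 8 with a probeset and all but Olfm4 above the filter, had means of 7.26, 7.23, 7.11 and 7.09 in the heme pools and 7.18 to 7.31 in the control pools, with 3 of 7 lower on day 14, beside 15.8% of all genes tested. Colonocyte markers, 12 of 12, had list means between 11.74 and 11.79 in the heme pools and between 11.68 and 11.72 in the control pools, so the labelled epithelium was present in every pool. The markers were mixed in direction: 6 of 12 were higher between the diets, with a median difference of 0.008, and the median on day 14 was -0.02. Smooth muscle markers, 9 of 9, ran from 6.88 to 8.49 in the heme pools and from 6.99 to 9.10 in the control pools and reached 7.07 in the heme pool of day 14. B and plasma cell markers (10 of 12) had means of 6.13 to 6.54 in heme pools and 6.31 to 6.67 in control pools, and T and NK cell markers (11 of 12) means of 5.43 to 5.56 in heme pools and 5.55 to 5.67 in control pools. Macrophage markers (12 of 13) ran from 6.21 to 6.76 in heme pools and from 6.35 to 7.00 in control pools. Fibroblast markers (9 of 9) ran from 7.04 to 7.92 in heme pools and from 7.14 to 8.28 in control pools, and endothelial markers (8 of 8) from 5.94 to 6.31 in heme pools and from 5.98 to 6.60 in control pools. Markers of the exocrine pancreas (11 of 14) stood at 9.00 in the heme pool and 8.39 in the control pool of day 2, against 5.29 to 5.41 elsewhere. Without both pools of day 2 the difference between the diets was -0.17 for Bcl2 (adjusted p = 0.343) and 0.15 for Bak1 (adjusted p = 0.256). The part of these cell types in the values of the family was not tested.

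**Figure D5:**
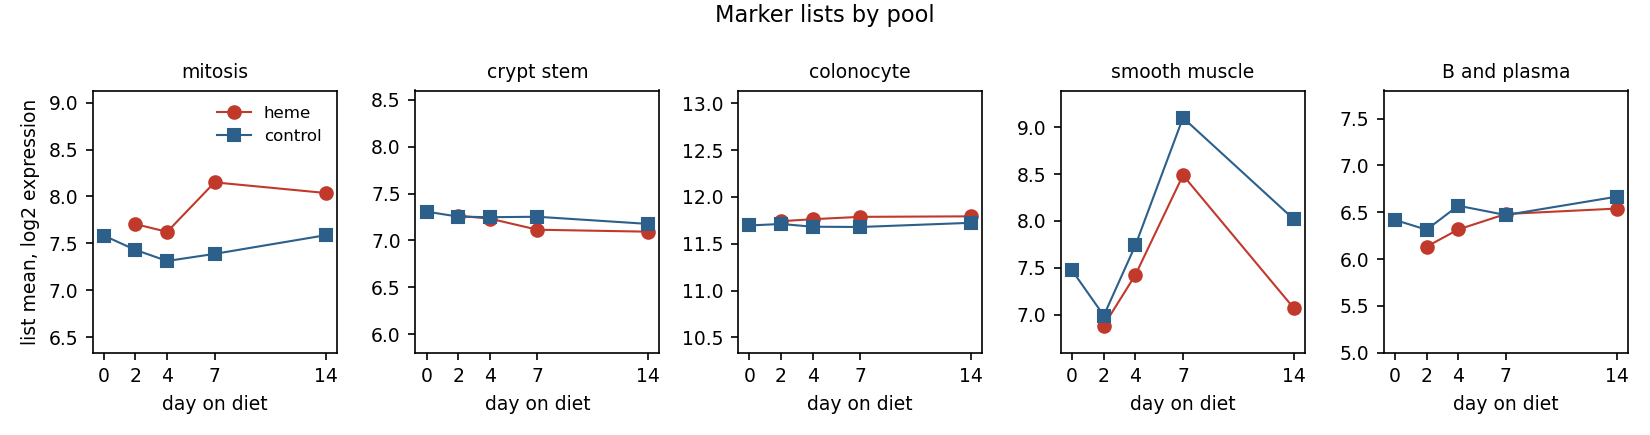
Mean log2 expression of 5 marker lists (vertical axes, the same span in every panel) against the day on diet (horizontal axis). Red circles are heme pools and blue squares control pools. Mitosis genes were higher in every heme pool than in all control pools, and smooth muscle markers peaked on day 7 in both diets.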

How the data were processed

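The authors deposited log2 expression values per probeset, made with RMA per the submitters' processing notes (version not given in the sources used here), a method that corrects for background, equalises the arrays' distributions and combines probes by median polish. Of 35556 probesets, 21789 had 1 gene symbol in the platform annotation, 1621 had several and were left out, and 12146 were unnamed here. The highest-mean probeset stood for each of 19938 genes, and a gene was tested if its mean reached 4.716 log2, the 25th percentile of all genes' means. Array medians lay between 5.895 and 5.963. Arrays give no read counts, and their number limits the precision.

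Comparisons used lmFit and eBayes of limma 3.58.1 (R 4.3.3) with an intensity trend and Benjamini-Hochberg adjustment across every gene tested, and exact permutation for single members. Tables and figures were made with Python 3.11.15 and matplotlib 3.10.9. A heme day was set against the 5 control pools, with 4 residual degrees of freedom. In simulated data for the comparison between diets (14953 genes), 40%, 80%, 100% and 100% of genes moved by 0.25, 0.5, 1 and 2 log2 were called. In the same data 17 genes that had not been moved were called as well. Pools of the same day share a label, not animals. Their deviations from the diet means correlated with r = 0.651, -0.005, 0.333 and 0.168 on days 2, 4, 7 and 14. Heme and control pools of different days had r between -0.454 and 0.422, below that of day 2. Pancreas markers were also high in both pools of day 2, and smooth muscle markers peaked on day 7 in both diets. The main comparison between the diets nevertheless left the day out, and an effect shared by pools of the same day was not tested. An alternative that takes the day into account is among those below.

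The members and lists were chosen with earlier results of these data known. The naming rule takes all members and, from each list, the genes called between the diets, or else its 2 highest and 2 lowest differences, and the 5 genes most like the member of lowest unadjusted p between the diets. Markers are given as list means. Alternatives were the filter, the trend, the mean of probesets, median centring, array weights, the day as a block, and fits without single pools or days.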

Additional observations from a re-analysis of the deposited data

Results flagged for a closer look

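Of 18 groups of pools examined, 9 members in each diet, 2 held a pool far from the others, and chance flags about 1 in 20 groups. Bcl2l1 stood at 7.80 log2 in the heme pool of day 14, while the other 3 heme pools shared 1 value, so that any other value would stand apart. Bcl2l11 stood at 7.14 in the control pool of day 2, above the other 4 control pools, which lay between 6.96 and 6.97.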

How the results depend on the processing

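All fits of the day 14 comparison used the same heme pool. The number of members called stayed at 0, or at 3 to 4, under every alternative in each of the 7 comparisons. It was 0 in all fits except those of day 14, where it was 3, or 4 with arrays centred on their medians and without the control pool of day 14, which added Pmaip1 (-0.43, adjusted p = 0.0343). With the day as a replicate block, no member was called between the diets (Bcl2 at -0.18, adjusted p = 0.235). Differences of values near 0 changed sign. Bcl2l1 was 0.022 between the diets with centred arrays and 0.021 without the control pool of day 0 or with the day as a block, between -0.019 and 0.021 over the fits that left out 1 pool, and on day 7 it was 0.0073 with centred arrays and between -0.025 and 0.015 without single control pools. On day 14 Bcl2l1 was between -0.00052 and 0.039 without single control pools, and Bad was -0.0075 between the diets without both pools of day 14, a choice made after seeing the data. Between the diets Bcl2 was at -0.23 when the heme pool of day 4 was left out (adjusted p = 0.089) and -0.09 with array weights (adjusted p = 0.5), and Bcl2l11 was at -0.003 without the heme pool of day 14. Counts over all genes moved more. Between the diets they ran from 30 to 251 without single pools, with 49 without the control pool of day 0, and were 0 without both pools of day 7 or of day 14 (1567 and 1507 at an unadjusted p under 0.05 in limma). On day 7 there were 8 to 67 without single control pools, 393 with the stricter filter, 95 with no filter and 115 without the trend, against 245. On day 2 there were 16 without the control pool of day 2, against 0, and on day 4 there was 1, against 0, with the stricter filter, with the mean of probesets or with centred arrays. No read depth bears on these values, and 1 pool per diet and day is the limit.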
